A study of Homo sapiens with 8 samples.

Results

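The genes examined were 10 genes of uveal melanoma, a tumour of melanocytes of the eye. Except for PRAME, a marker of metastatic risk, these genes carry driver mutations or act directly in the pathway those mutations switch on. They were taken by name and not by a cut on measured values, but earlier results of these data were known when they were chosen. Values were found for 8 of the 10 among the 32087 loci of the table: the phospholipases PLCB3 and PLCB4, the kinase gene PRKCD, the RAS activator gene RASGRP3, the tumour suppressor gene BAP1, the translation factor gene EIF1AX, the antigen gene PRAME and the receptor gene CYSLTR2. GNAQ and GNA11 were not analysed here. Of the 8 genes, 7 had a mean of at least 1 and were tested together with 11884 other named genes.

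All libraries came from MEL202, a human uveal melanoma cell line that carries mutant SF3B1, a splicing factor gene, and there was 1 library in each of 8 groups. In the mutant knockout line the mutant SF3B1 allele was knocked out. The mutant degron line had a destabilising domain on the mutant allele, and the wildtype degron line had that domain on the wildtype allele. Parental cells were the remaining line. Each line was grown without and with Shld, a ligand that protects proteins carrying the domain from degradation. The labels give 2 days for the 3 engineered lines and no time for parental cells. The table's own column names give 4 days without Shld for the knockout line and for parental cells, and say that the wildtype allele of the knockout line carries the domain as well, which the labels do not state. Each kind of edit is represented by 1 line, which may be a single clone, so the edit and the line cannot be told apart.

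In most uveal melanomas a Gq alpha subunit, or less often its receptor CYSLTR2 or its effector PLCB4, is locked in the active state. Active Gq drives phospholipase C beta, whose product diacylglycerol recruits protein kinase C isoforms and RASGRP3, and RASGRP3 loads RAS with GTP and so feeds the RAF, MEK and ERK kinases. Loss of BAP1, mutation of SF3B1 and mutation of EIF1AX are later events that tend to exclude one another and mark tumours of different risk, and PRAME is used as a marker of metastatic risk.

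Values are FPKM (fragments per length of transcript and per library size) that the authors rescaled, which set the 75th percentile of each library to 10. Absolute depth is unknown. Per unit of value, the other libraries held 1.05 to 1.48 times the fragments of the parental library with Shld, and the 2 highest factors were those of the knockout and mutant degron libraries with Shld. Melanocyte markers were present in every library, with 11 of 15 in the table. Their summed level was 6642 and 7396 in the knockout line without and with Shld, 9353 and 7749 in the mutant degron line, 14503 and 15756 in the wildtype degron line, and 13156 and 12146 in parental cells, and its part in the differences between lines was not tested. All 5 epithelial markers in the table were below 1 in every library, as were 3 of the 4 fibroblast markers. Of the immune markers, the T cell gene CD3E was listed at 0 in all libraries, PTPRC, which marks leukocytes, reached at most 1.22, and CD68, a lysosomal protein used as a macrophage marker, stood at 638 to 833. SF3B1 itself stood at 138 and 158 in the knockout line, 252 and 248 in the mutant degron line, 201 and 188 in the wildtype degron line, and 240 and 266 in parental cells. It was lower in the knockout line (difference -0.77 on the log2 scale, limma adjusted p = 0.00068) and in the wildtype degron line (-0.38, adjusted p = 0.017, passing under 14 of 18 alternatives), and did not pass the test in the mutant degron line (-0.01, adjusted p = 0.93). Differences against parental cells also rose with transcript length across 9636 genes, with Spearman's rho of 0.275 in the knockout line, 0.254 in the mutant degron line and 0.391 in the wildtype degron line for the longest protein-coding transcript of each gene. These correlations are over genes that share the same libraries and are a description only.

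The promoters of EIF1AX and PLCB3 are shown because these are the genes past the threshold against parental cells that have a single start in the RefSeq promoter table (GRCh38.p14), in which 6 of the 8 genes matched. This choice was made after the values were seen. Each sequence is the 250 bases before the start, on the strand of the gene, with GC boxes (GGGCGG on either strand) in capitals.
EIF1AX, chrX:20141839-20142088, minus strand: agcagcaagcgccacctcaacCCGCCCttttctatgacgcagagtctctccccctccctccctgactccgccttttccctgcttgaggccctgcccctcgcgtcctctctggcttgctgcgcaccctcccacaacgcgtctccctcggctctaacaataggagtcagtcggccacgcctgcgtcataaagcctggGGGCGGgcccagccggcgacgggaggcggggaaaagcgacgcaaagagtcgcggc
PLCB3, chr11:64251280-64251529, plus strand: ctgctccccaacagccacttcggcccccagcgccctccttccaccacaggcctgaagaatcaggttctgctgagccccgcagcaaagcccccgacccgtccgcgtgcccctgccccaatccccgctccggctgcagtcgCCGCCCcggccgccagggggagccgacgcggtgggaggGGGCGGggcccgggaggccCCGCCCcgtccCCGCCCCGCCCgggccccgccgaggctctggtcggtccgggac
The EIF1AX stretch was 66% G and C and held 2 GC boxes, and that of PLCB3 was 78% G and C and held 5. The median over 35116 promoters was 58%, and 42.6% of them held at least 1 GC box. TATAAA was found in neither stretch and in 10.7% of all promoters. The core of the cyclic AMP response element (TGACG, either strand) was found 2 times in the EIF1AX stretch, not in that of PLCB3, and in 21.2% of all promoters.

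The driver pathway genes fell into a wide range of levels that changed little between libraries. PRAME was the highest, followed by PLCB3 and RASGRP3, then BAP1 and EIF1AX, then PRKCD, PLCB4 and CYSLTR2. On this per-length scale no neighbours in that order overlapped in their range over the 8 libraries except BAP1 and EIF1AX, of which BAP1 was the higher in 6 of 8 libraries. By their mean, PRAME, PLCB3 and RASGRP3 stood at percentiles 97.4, 96.0 and 93.7 of the 11891 genes tested, BAP1 at 79.3, EIF1AX at 75.2, PRKCD at 59.2 and PLCB4 at 10.2. The highest library exceeded the lowest by 1.30 times for PRAME, 1.37 for PRKCD, 1.41 for PLCB3, 1.44 for BAP1, 1.57 for RASGRP3, 1.67 for EIF1AX and 1.88 for PLCB4. None reached a range of 1 on the log2(value + 1) scale, which 3102 of the 11891 genes did. The median range of all genes tested was 0.72, and that of EIF1AX was the only one among the 7 genes to reach it. PLCB4 had the largest ratio of highest to lowest library but a range of 0.66 on this scale, which understates changes of low genes.

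**Figure D1:**
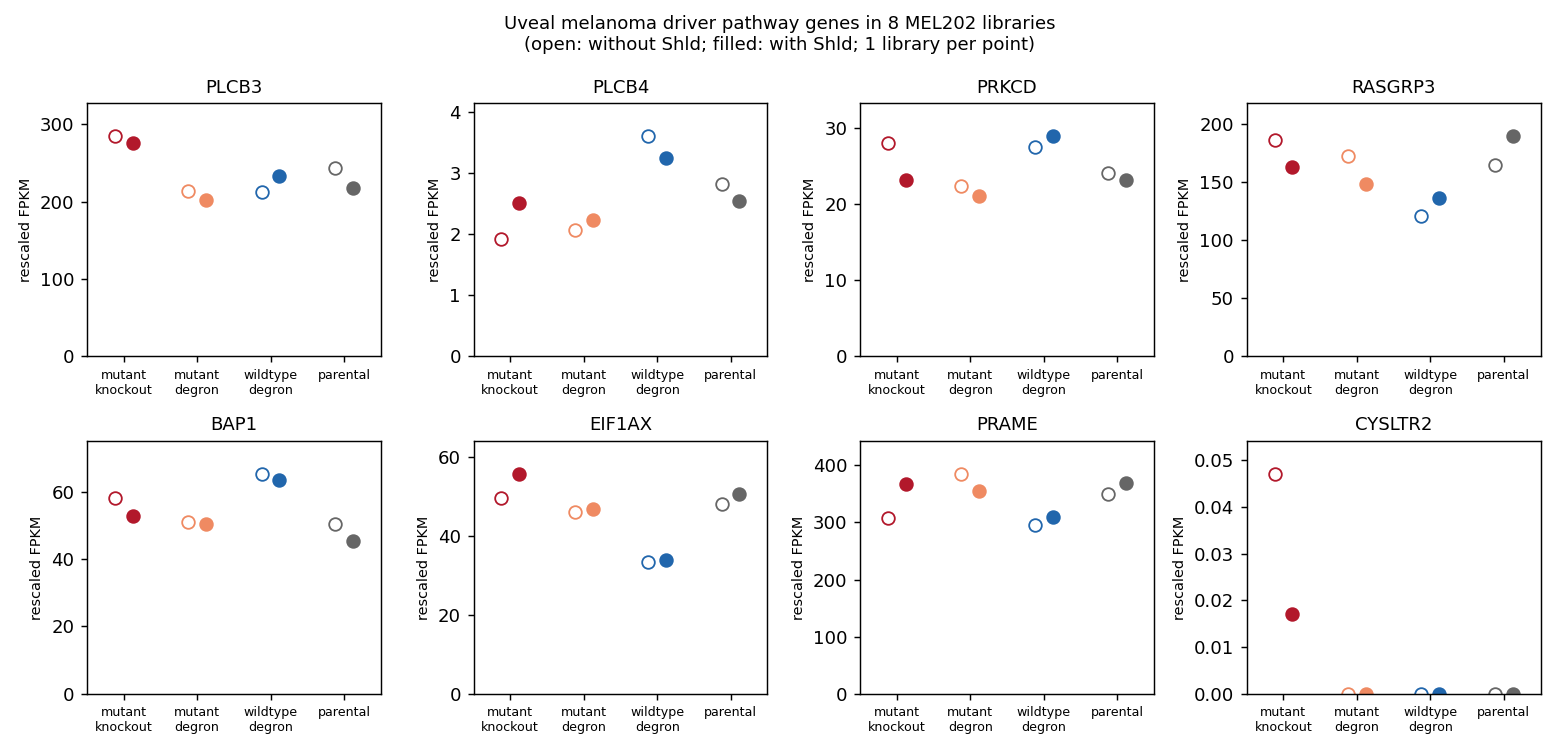
Level (rescaled FPKM, linear axes from 0, each with its own scale) of 8 driver pathway genes in 4 lines, with 1 point per library; open points are without Shld and filled points with Shld. EIF1AX is lowest in both wildtype degron libraries (33.4 and 33.8), BAP1 is highest in them (65.3 and 63.5), and CYSLTR2 is at 0 outside the knockout line.

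PLCB3 and PLCB4 encode phospholipases of the beta class, which Gq activates to split a membrane phosphoinositide into diacylglycerol and inositol trisphosphate. PLCB3 stood at 285 and 276 in the knockout line without and with Shld, 214 and 203 in the mutant degron line, 212 and 233 in the wildtype degron line, and 243 and 218 in parental cells. Both knockout libraries were above all the others. The difference against parental cells was 0.28 ± 0.096 (standard error) on the log2(value + 1) scale, at the edge of the threshold (limma on 11891 genes, Benjamini-Hochberg adjusted p = 0.048). It passed under 5 of 18 alternative settings and under 1 of the 8 that leave out a library. Against the mutant degron line it was 0.43 ± 0.096 (adjusted p = 0.025), a call that was lost on leaving out any 1 of the 4 libraries compared, with adjusted p from 0.088 to 0.132. Against the wildtype degron line it was 0.33 ± 0.096 (adjusted p = 0.021), and the adjusted p was 0.090 and 0.083 without either knockout library and 0.234 without the wildtype degron library without Shld. A second locus named PLCB3 held 16.7 and 21.0 in the knockout line without and with Shld, and 21.0 and 22.4 in parental cells. In the mutant degron line it held 18.5 and 19.6, and in the wildtype degron line 22.4 and 25.5. The knockout libraries were thus not the highest at this locus, unlike at the first. Its part in the result was not tested. PLCB4, in which activating mutations occur, stood at 1.92 and 2.51 in the knockout line, 2.06 and 2.22 in the mutant degron line, 3.60 and 3.24 in the wildtype degron line, and 2.82 and 2.53 in parental cells. The 2 wildtype degron libraries were the highest, the mutant degron pair lay below the parental pair, and the knockout pair overlapped with the mutant degron pair. PLCB4 passed no test against parental cells. It was lower in the knockout line than in the wildtype degron line (-0.46 ± 0.15, adjusted p = 0.033) and lower in the mutant degron line than in the wildtype degron line (-0.49 ± 0.15, adjusted p = 0.027). In the first comparison the adjusted p was 0.216 without the knockout library without Shld, and 0.215 and 0.082 without the wildtype degron library without and with Shld. In the second it was between 0.074 and 0.183 without any 1 of the 4 libraries compared.

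PRKCD encodes protein kinase C delta, which diacylglycerol activates and which acts with RASGRP3 downstream of Gq. It stood at 28.0 and 23.1 in the knockout line, 22.4 and 21.1 in the mutant degron line, 27.5 and 28.9 in the wildtype degron line, and 24.0 and 23.2 in parental cells. The wildtype degron libraries were above parental cells and the mutant degron libraries below them, while the knockout pair spanned the parental pair. Against parental cells the difference in the wildtype degron line was 0.25 ± 0.10 and missed the threshold (adjusted p = 0.087). Between the mutant and the wildtype degron lines it was -0.36 ± 0.10 (adjusted p = 0.020). The adjusted p was 0.200 without the wildtype degron library with Shld, and 0.090 and 0.080 without the mutant degron library without and with Shld. RASGRP3 encodes the guanine nucleotide exchange factor that loads RAS with GTP. It stood at 186 and 163 in the knockout line, 172 and 148 in the mutant degron line, 121 and 136 in the wildtype degron line, and 165 and 190 in parental cells. The 2 wildtype degron libraries were the lowest of the 8. RASGRP3 fell by 0.46 ± 0.12 there against parental cells (adjusted p = 0.019), and passed under 12 of 18 alternatives. It missed the threshold without the wildtype degron library without Shld (-0.34, adjusted p = 0.168), without the one with Shld (-0.58, adjusted p = 0.052) and without the parental library with Shld (-0.32, adjusted p = 0.158). It was higher in the knockout line than in the wildtype degron line (0.44 ± 0.12, adjusted p = 0.019), and that call was lost without the knockout library without Shld (adjusted p = 0.137) and without the wildtype degron library without Shld (0.172).

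BAP1 encodes a nuclear deubiquitinase that removes ubiquitin from histone H2A and whose loss marks high-risk uveal melanoma. It stood at 58.3 and 52.8 in the knockout line, 51.1 and 50.6 in the mutant degron line, 65.3 and 63.5 in the wildtype degron line, and 50.4 and 45.5 in parental cells. The wildtype degron libraries were the 2 highest, without overlap with any other. BAP1 was higher there than in parental cells by 0.42 ± 0.085 (adjusted p = 0.0061), a call that passed under 15 of 18 alternatives. It was lost without the wildtype degron library with Shld (0.39, adjusted p = 0.076), without the parental library with Shld (0.38, adjusted p = 0.053) and in the fit that takes the spread from the parental pair alone (0.40, adjusted p = 0.079). Between the mutant and the wildtype degron lines it was -0.33 ± 0.085 (adjusted p = 0.012). The adjusted p was 0.086 without the mutant degron library without Shld, and 0.063 and 0.116 without the wildtype degron library without and with Shld. The knockout line differed by 0.21 ± 0.085 from parental cells, which missed the threshold (adjusted p = 0.085).

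EIF1AX encodes a factor of the 43S preinitiation complex, which scans messenger RNA for the start codon. It stood at 49.7 and 55.6 in the knockout line, 46.0 and 46.8 in the mutant degron line, 33.4 and 33.8 in the wildtype degron line, and 48.2 and 50.5 in parental cells. The 2 wildtype degron libraries were far below the other 6, which lay between 46.0 and 55.6. EIF1AX fell by 0.54 ± 0.085 in the wildtype degron line against parental cells (adjusted p = 0.0024). It was higher in the knockout line (0.63 ± 0.085, adjusted p = 0.00063) and in the mutant degron line (0.46 ± 0.085, adjusted p = 0.0033) than in the wildtype degron line. The difference against parental cells passed under 18 of 18 alternatives, and the other 2 under 17 of 17 each. The ratio of EIF1AX to BAP1 was 0.511 and 0.532 in the wildtype degron libraries, against 0.853 to 1.11 elsewhere. The gene has a closely related copy on the Y chromosome and processed copies elsewhere, so the authors' counting may have shared reads among them.

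PRAME, which is silent in most adult tissues, encodes an antigen that is part of a cullin ligase. It stood at 308 and 367 in the knockout line, 384 and 355 in the mutant degron line, 296 and 309 in the wildtype degron line, and 349 and 369 in parental cells. The wildtype degron pair was below the parental pair but overlapped with the knockout library without Shld. The difference against parental cells was -0.25 ± 0.10 (adjusted p = 0.087). PRAME was higher in the mutant degron line than in the wildtype degron line by 0.29 ± 0.10 (adjusted p = 0.047). The adjusted p was 0.321 without the mutant degron library without Shld, and 0.182 and 0.206 without the wildtype degron library without and with Shld. CYSLTR2 encodes a receptor for cysteinyl leukotrienes. It stood at 0.0470 and 0.0170 in the knockout line and was listed at 0 in the other 6 libraries. It was below the filter and was not tested.

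**Figure D2:**
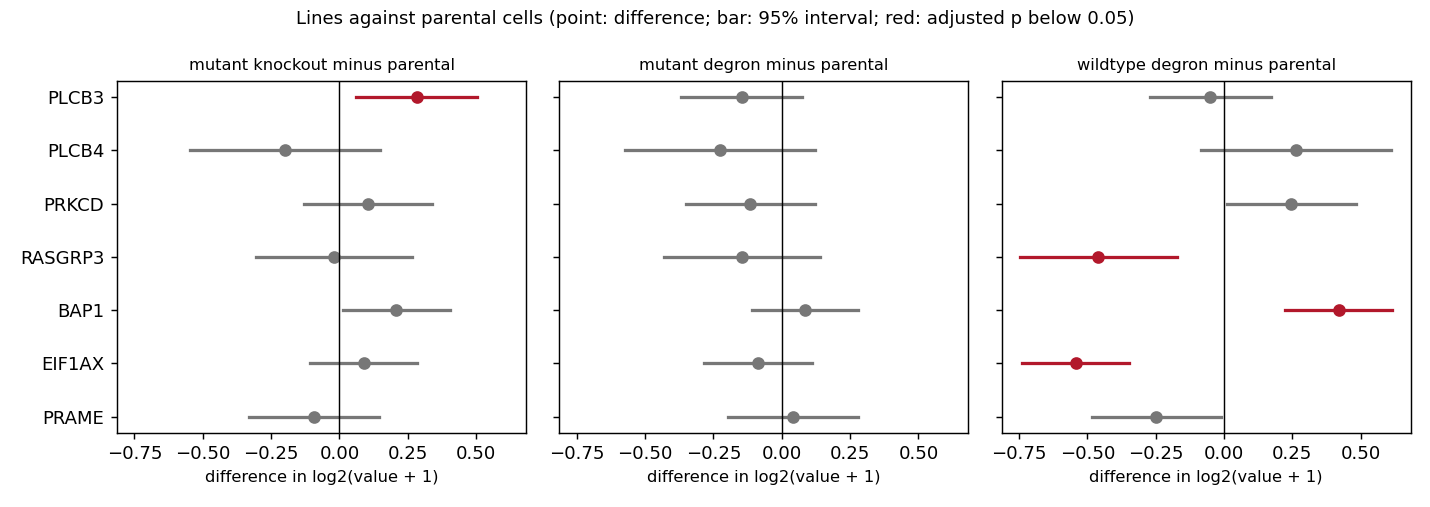
Difference in log2(value + 1) of 7 driver pathway genes against parental cells, with the point for the difference and the bar for the unadjusted 95% interval of the limma fit on 8 libraries; red marks adjusted p below 0.05. EIF1AX (-0.54), RASGRP3 (-0.46) and BAP1 (0.42) pass in the wildtype degron line, PLCB3 (0.28) in the knockout line, and none in the mutant degron line.

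Against parental cells 1 of 7 passed in the knockout line, where 38.2% of all 11891 genes did. None of 7 passed in the mutant degron line (limma), where 24.6% of all genes did, and 0 of 7 had an unadjusted p under 0.05, where 38.9% of all genes did. In the wildtype degron line 3 of 7 passed, where 41.9% of all genes did. Between lines, 1 of 7 passed between the knockout and mutant degron lines (12.8% of all genes), 4 of 7 between the knockout and wildtype degron lines (49.2%) and 5 of 7 between the mutant and wildtype degron lines (50%). The median size of the difference against parental cells over the 7 genes was 0.104 in the knockout line, 0.115 in the mutant degron line and 0.265 in the wildtype degron line, and over all genes 0.266, 0.213 and 0.286. These comparisons share the parental libraries.

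The calls were also checked with 2 corrections for transcript length, added after the values were seen, and some of them moved. With the longest protein-coding transcript as the length, EIF1AX (-0.60, adjusted p = 0.0016), BAP1 (0.39, adjusted p = 0.0077) and RASGRP3 (-0.54, adjusted p = 0.012) passed in the wildtype degron line, and so did PRKCD (0.30, adjusted p = 0.049). PLCB3 in the knockout line did not (0.25, adjusted p = 0.054). With the median over transcript models, the measure run first, RASGRP3 missed the threshold (-0.31, adjusted p = 0.069), PRKCD passed (0.39, adjusted p = 0.017), PLCB3 in the knockout line missed it (0.18, adjusted p = 0.160), and BAP1 passed in the knockout line (0.28, adjusted p = 0.032). That median was 728.5 bases for RASGRP3 and 777 for PRKCD, against 4807 and 2810 for the longest transcript, since partial models enter it.

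Removing Shld lets SF3B1 protein that carries the domain be degraded, and the question was whether the driver pathway genes respond. For the knockout line, the column names but not the labels say that SF3B1 carries the domain. None of the 7 passed in any line. The spread came from the parental pair, which itself differed in Shld, so any change with Shld in parental cells counted as spread. In that pair the differences of the 7 genes ran from -0.20 (RASGRP3) to 0.16 (PLCB3). Without against with Shld, the differences ran from -0.27 (PLCB4) to 0.26 (PRKCD) in the knockout line, from -0.08 (PLCB4) to 0.22 (RASGRP3) in the mutant degron line, and from -0.17 (RASGRP3) to 0.12 (PLCB4) in the wildtype degron line. The lowest adjusted p of a gene was 0.585 in the knockout line and 1 in each degron line, and 0 of 7 had an unadjusted p under 0.05 (limma, spread from the parental pair). At that unadjusted level stood 11.5%, 2.07% and 4.01% of all genes in the knockout, mutant degron and wildtype degron lines. Over all genes 0.0757% passed in the knockout line, 0.0757% in the mutant degron line and 0.0673% in the wildtype degron line. For EIF1AX the 95% interval of the withdrawal was -0.38 to 0.34 in both degron lines, and for BAP1 -0.37 to 0.40 in the mutant degron line. With 1 library per state, changes inside these intervals were not excluded. The intervals are unadjusted, while the threshold is on p adjusted over 11891 genes, so a change beyond them could still miss that threshold. The difference between lines in their withdrawal passed for 0 of 7 genes in each of 3 pairs of lines (limma), where 0.0673%, 0.0757% and 0.0336% of all genes passed. At an unadjusted p under 0.05 it was again 0 of 7 in each pair, where 7.41%, 3.2% and 4.2% of all genes were. The pairs are knockout against mutant degron, knockout against wildtype degron, and wildtype degron against mutant degron.

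**Figure D3:**
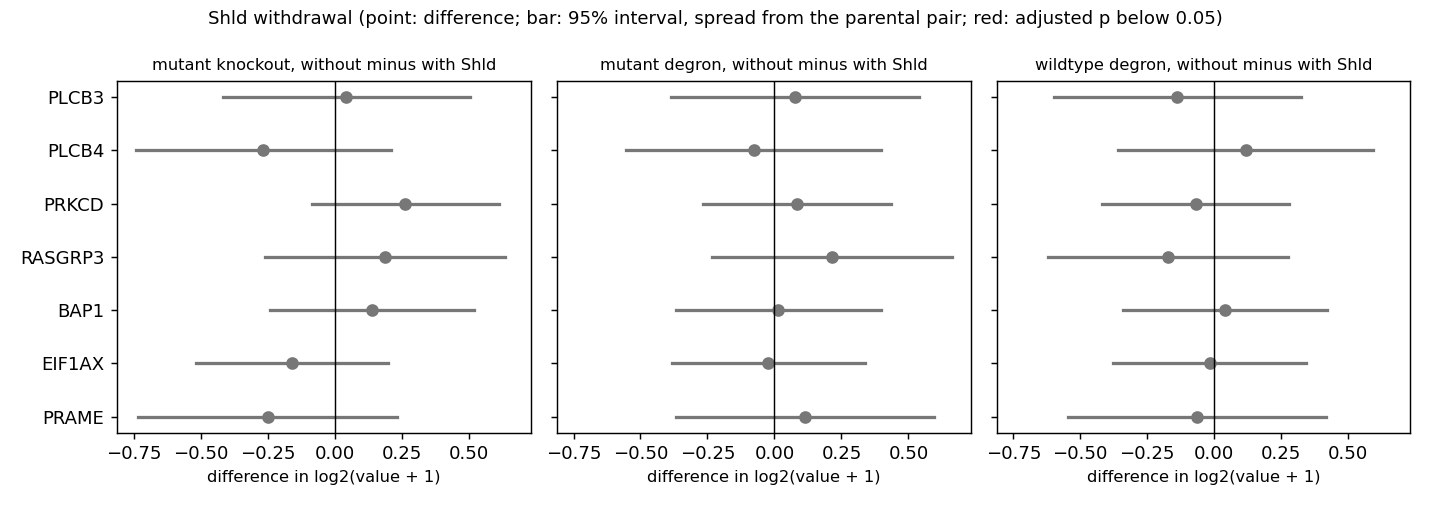
Difference in log2(value + 1) without against with Shld for 7 driver pathway genes in 3 lines, with the point for the difference and the bar for its unadjusted 95% interval, taking the spread from the parental pair. Every interval spans 0 and no gene passes the threshold.

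Family members of the phospholipase, kinase and RAS activator genes were compared on the same per-length scale, a choice made after the values were seen. PLCB3 made up 89.3% to 96.6% of the summed level of PLCB1 to PLCB4. PLCB2, a phospholipase that Gq also activates, moved most: it stood at 0.985 and 1.16 in the knockout line, 17.0 and 14.7 in the mutant degron line, 1.59 and 2.25 in the wildtype degron line, and 5.68 and 6.77 in parental cells. It fell by 1.80 in the knockout line and fell by 1.31 in the wildtype degron line, and was higher by 1.22 in the mutant degron line, each against parental cells and each under 18 of 18 alternatives (adjusted p = 7.51e-05, 0.0012 and 0.0012). RASGRP3 was 99.6% to 99.9% of the RASGRP sum, and RASGRP4 was listed at 0. PRKCD was 25.3% to 32.7% of 8 protein kinase C genes. PRKCA, a classical isoform, stood at 42.0 and 37.9 in the knockout line, 20.4 and 21.4 in the mutant degron line, 23.7 and 24.6 in the wildtype degron line, and 17.0 and 16.7 in parental cells. It was higher in the knockout line by 1.20 (adjusted p = 5.37e-05) and in the wildtype degron line by 0.49 (adjusted p = 0.0047). The second call was lost without the wildtype degron library with Shld (0.45, adjusted p = 0.063) and with the median and the longest length (0.13 and 0.23, adjusted p = 0.264 and 0.069). PRKCH, the eta isoform, stood at 5.58 and 3.99 in the knockout line, 4.47 and 4.20 in the mutant degron line, 18.7 and 18.0 in the wildtype degron line, and 12.2 and 12.9 in parental cells. It fell by 1.24 in the knockout line and fell by 1.34 in the mutant degron line (adjusted p = 0.00025 and 0.00038), and was higher by 0.52 in the wildtype degron line (adjusted p = 0.015). In the wildtype degron line the adjusted p was 0.068 and 0.117 without the wildtype degron library without and with Shld, 0.114 without the parental library without Shld, and 0.059 with no filter.

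The wider pathway was followed through 11 lists with 153 genes, of which 105 were tested. Against parental cells 18 were higher and 24 lower in the knockout line, 7 and 19 in the mutant degron line, and 24 and 20 in the wildtype degron line. Together that is 40% of the genes tested, 24.8% and 41.9%, beside 38.2%, 24.6% and 41.9% of all genes. No gene of the lists passed for the withdrawal of Shld in any line (limma). Of all genes, 0.0757% passed in the knockout line, 0.0757% in the mutant degron line and 0.0673% in the wildtype degron line. In the knockout, mutant degron and wildtype degron lines, 13, 0 and 1 of the 105 genes had an unadjusted p under 0.05. Of all genes, 11.5%, 2.07% and 4.01% did.

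**Figure D4:**
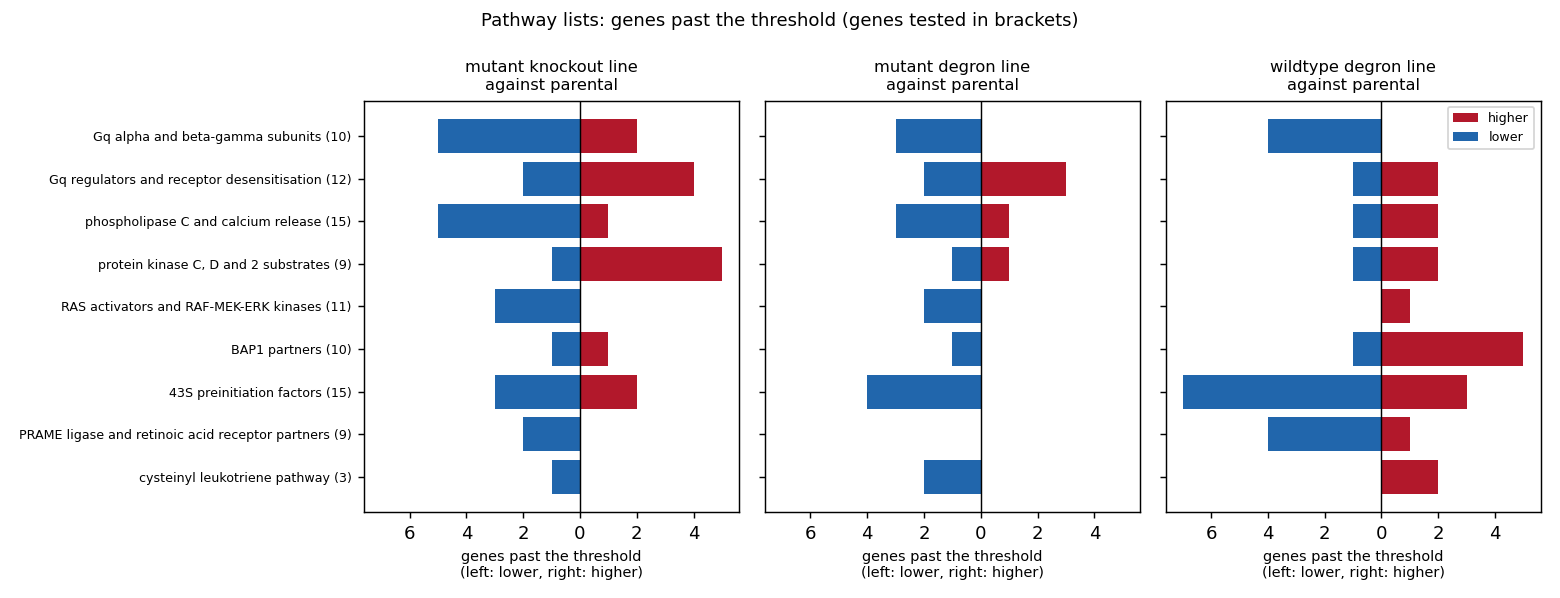
Number of genes past the threshold against parental cells in 9 pathway lists, with bars to the left for lower and to the right for higher and the genes tested in brackets; the list with 1 tested gene is not drawn. In the list of protein kinase C and D genes with 2 substrates, 5 of 9 are higher in the knockout line, where 17.2% of all genes are, and 5 of 10 BAP1 partners are higher in the wildtype degron line, beside 20.6% of the genes tested.

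Among regulators of Gq, RGS2 and RGS16, which speed the switching off of G alpha subunits, rose most in the knockout line, each under 18 of 18 alternatives. RGS2 stood at 663 and 790 in the knockout line, 333 and 365 in the mutant degron line, 82.4 and 79.4 in the wildtype degron line, and 127 and 148 in parental cells. It was higher by 2.39 in the knockout line and by 1.34 in the mutant degron line and fell by 0.76 in the wildtype degron line (adjusted p = 2.55e-06, 9.49e-05 and 0.0015). RGS16 stood at 29.2 and 16.1 in the knockout line, 5.80 and 7.34 in the mutant degron line, 2.07 and 1.91 in the wildtype degron line, and 2.41 and 2.79 in parental cells. It was higher by 2.66 in the knockout line (adjusted p = 0.00011) and by 1.07 in the mutant degron line (adjusted p = 0.015). Of 12 regulators tested, 4 were higher and 2 lower in the knockout line, 3 and 2 in the mutant degron line, and 2 and 1 in the wildtype degron line. Among G protein subunits, 2 of 10 were higher and 5 lower in the knockout line, 0 and 3 in the mutant degron line, and 0 and 4 in the wildtype degron line. Of all genes, 17.2% were higher and 20.9% lower in the knockout line. In the mutant degron line it was 10.9% and 13.7%, and in the wildtype degron line 20.6% and 21.3%. GNG11, a gamma subunit, stood at 574 and 645 in the knockout line, 485 and 442 in the mutant degron line, 767 and 796 in the wildtype degron line, and 1051 and 1347 in parental cells, and passed as lower in all 3 lines. In the wildtype degron line its difference of -0.61 was lost without the library with Shld (adjusted p = 0.068) and with the parental spread (adjusted p = 0.118), and was -0.35 with quantile normalization. GNG2, another gamma subunit, stood at 25.1 and 29.8 in the knockout line, 11.6 and 11.1 in the mutant degron line, 10.4 and 10.2 in the wildtype degron line, and 10.5 and 8.87 in parental cells, and was higher by 1.41 in the knockout line (adjusted p = 9.37e-05). It had the largest difference of its list there.

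Of 15 phospholipase C and calcium release genes, 1 was higher and 5 lower in the knockout line, 1 and 3 in the mutant degron line, and 2 and 1 in the wildtype degron line. The list of protein kinase C and D genes also holds the substrates MARCKS and MARCKSL1. Of its 7 tested kinases, 3 were higher and 1 lower in the knockout line, 0 and 1 in the mutant degron line, and 2 and 0 in the wildtype degron line. With both substrates it was 5 of 9 higher and 1 lower, 1 and 1, and 2 and 1 in these lines. In the knockout line 17.2% of all genes were higher and 20.9% lower. In the mutant degron line it was 10.9% and 13.7%, and in the wildtype degron line 20.6% and 21.3%. MARCKS, a protein kinase C substrate, was higher in the knockout line by 0.93 (adjusted p = 0.00019) and in the mutant degron line by 0.55 (adjusted p = 0.0046). In the RAS to ERK kinases, 0 of 11 were higher and 3 lower in the knockout line, 0 and 2 in the mutant degron line, and 1 and 0 in the wildtype degron line. MAPK3, which encodes ERK1, stood at 25.5 and 28.8 in the knockout line, 29.5 and 28.8 in the mutant degron line, 51.4 and 50.7 in the wildtype degron line, and 47.1 and 45.5 in parental cells. It fell by 0.75 in the knockout line and fell by 0.65 in the mutant degron line (adjusted p = 0.00057 and 0.0022), under 18 of 18 alternatives each.

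BAP1 partners were 1 higher and 1 lower of 10 in the knockout line, 0 and 1 in the mutant degron line, and 5 and 1 in the wildtype degron line (median 0.34). In that line FOXK1, ASXL2 and HCFC1, which bind BAP1, were higher by 0.87, 0.74 and 0.56 (adjusted p = 0.0017, 0.0019 and 0.0031). With the median and the longest length these differences were 0.60 and 0.54 for FOXK1, 0.38 and 0.39 for ASXL2, and 0.21 and 0.29 for HCFC1, which missed the threshold with the median (adjusted p = 0.083). Of 15 factors of the 43S complex, 3 were higher and 7 lower in the wildtype degron line (median -0.25), among them EIF3E, which fell by 0.79, EIF3A, higher by 0.73, and EIF3I, which fell by 0.63 (adjusted p = 0.0052, 0.0013 and 0.0017). With the parental spread EIF3E and EIF3I missed the threshold (adjusted p = 0.090 and 0.055). With the median and the longest length EIF3A was at 0.48 and 0.55, EIF3I at -0.49 and -0.39, and EIF3E at -0.63 and -0.56. In the knockout line 2 were higher and 3 lower, and in the mutant degron line 0 and 4. Of all genes, 20.6% were higher and 21.3% lower in the wildtype degron line. In the knockout line it was 17.2% and 20.9%, and in the mutant degron line 10.9% and 13.7%. Over all genes in the wildtype degron line, the median difference was -0.21 for genes in the lowest 25% of transcript length and 0.22 for genes in the highest 25%. With the median length 5 BAP1 partners were higher and 1 lower in that line (median 0.24), and 2 of the 43S factors were higher and 4 lower (median -0.11). With the longest length it was 5 and 1 (0.28), and 3 and 6 (-0.15). Of the 9636 genes with a length, 20.8% were higher and 19.4% lower in the wildtype degron line with the median length. With the longest length the shares were 20.3% and 18.9%.

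Partners of PRAME in its ligase and in retinoic acid receptor repression showed 0 of 9 higher and 2 lower in the knockout line, 0 and 0 in the mutant degron line, and 1 and 4 in the wildtype degron line, where RBX1, the RING subunit of cullin ligases, fell by 0.97 (adjusted p = 0.0013). Of all genes, 17.2% were higher and 20.9% lower in the knockout line. In the mutant degron line it was 10.9% and 13.7%, and in the wildtype degron line 20.6% and 21.3%. With the median length 1 of 7 partners was higher and 3 lower in the wildtype degron line, and with the longest length 1 and 2. Of genes with a length, 20.8% were higher and 19.4% lower there with the median, and 20.3% and 18.9% with the longest. The cancer-testis antigen SSX1 was the only tested gene of its list and was lower in all 3 lines (-1.19, -0.81 and -0.49 in the knockout, mutant degron and wildtype degron lines). In the wildtype degron line that call was lost without either wildtype degron library (adjusted p = 0.098 and 0.069), without the parental library with Shld (0.131), with no filter (0.050) and with the longest length (-0.21, adjusted p = 0.205). In the cysteinyl leukotriene list, GGT1, which splits leukotriene C4, stood at 2.35 and 1.32 in the knockout line, 5.58 and 4.77 in the mutant degron line, 24.5 and 22.8 in the wildtype degron line, and 10.6 and 10.3 in parental cells. It fell by 2.04 in the knockout line, fell by 0.89 in the mutant degron line and was higher by 1.11 in the wildtype degron line (adjusted p = 2.80e-05, 0.0032 and 0.0014).

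**Figure D5:**
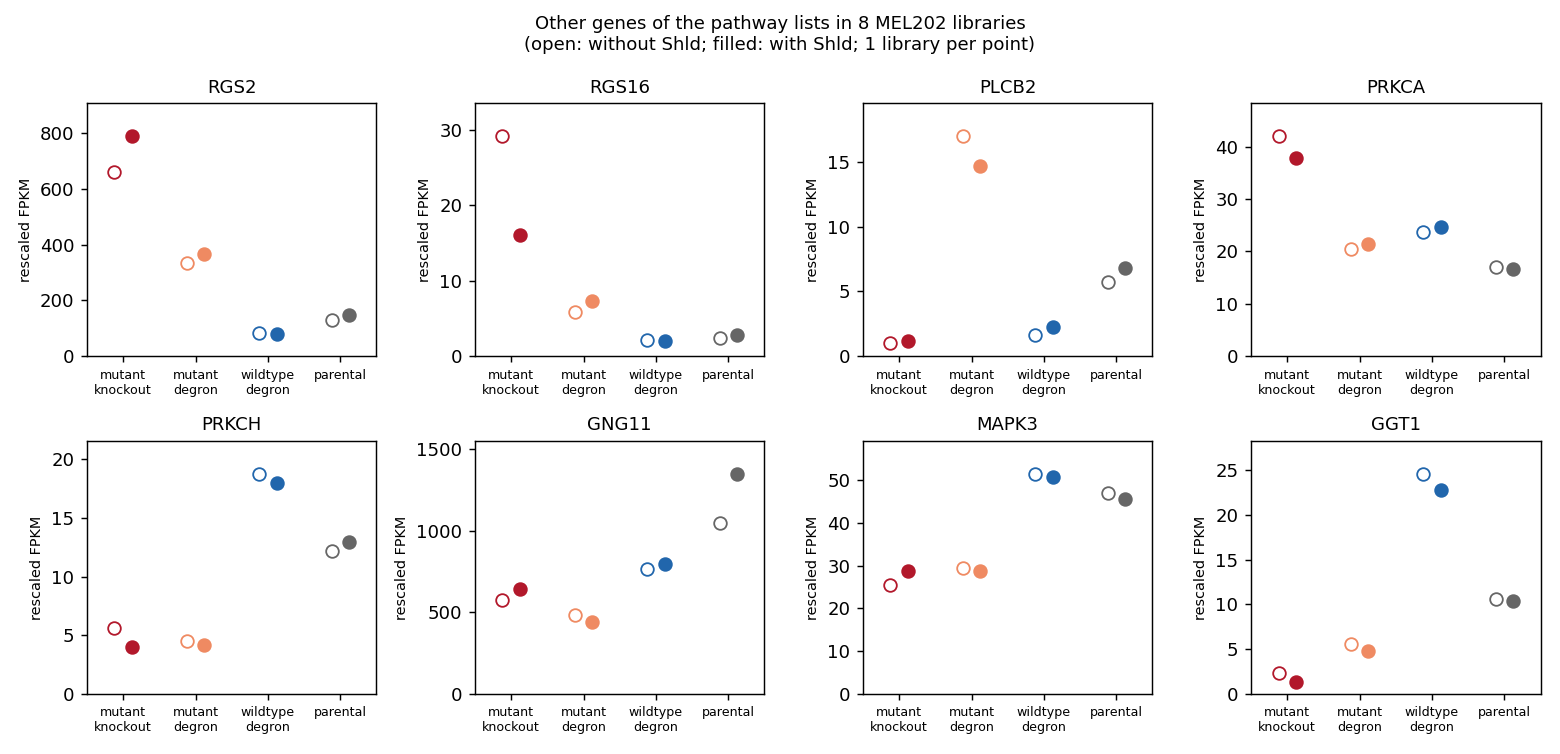
Level (rescaled FPKM, linear axes from 0, each with its own scale) of 8 other genes of the pathway lists, picked after their values were seen, in 4 lines, with 1 point per library; open points are without Shld and filled points with Shld. RGS2 is at 663 and 790 in the knockout line and at 127 and 148 in parental cells.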

How the data were processed

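RNA of 8 MEL202 libraries, 1 per group, was sequenced with paired reads of 100 bases, per the labels' protocols. TopHat, Cufflinks and hg19 are named in the submitters' processing notes; for these, the version, the annotation and strand setting are not given in the sources used. The deposited values are FPKM that the authors rescaled to a 75th percentile of 10 in each library; that FPKM was the input is inferred from the tools and the values. Depth is therefore unknown. Each column was assigned by its name.

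Of loci with a gene name, small RNAs were left out, 1 locus per symbol was kept and a mean of at least 1 was required, which left 11891 genes. limma 3.58.1 in R 4.3.3 was fitted to log2(value + 1), a scale that understates changes of low genes. The line model had line and Shld as terms (3 residual degrees of freedom). The withdrawal model gave each library of the engineered lines its own coefficient, with the spread from parental cells alone (1 residual degree of freedom), so a lone library is assumed to vary like that pair. The 2 parental libraries differed in Shld, and any change with Shld between them counted as spread. P-values were adjusted over all genes by the Benjamini-Hochberg method at 0.05. No source says that 2 libraries of a line came from separate cultures, and the p-values then measure only the spread between these samples, which may be technical. Scripts were tested on simulated data.

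The genes, their lists and the tests were chosen with earlier results of these data known. Genes named from a list are among the up to 3 with the largest differences past the threshold in each line against parental cells, and which of these are printed was chosen after their values were seen. The result of 1 list and 1 marker gene are not reported here, though the totals include that list. Transcript lengths were taken from GENCODE (81.0% of tested genes matched by symbol), and 2 corrections by length were added after the values were seen.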

Additional observations from a re-analysis of the deposited data

How the results depend on the processing

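No paired analysis was possible because each group held 1 library, so that groups shared fewer than 2 replicate numbers. Shld state was a term of the line model, and without it 4497, 2925 and 4922 genes passed in the knockout, mutant degron and wildtype degron lines. The count of genes past the threshold against parental cells moved from 4537 to 2699 in the knockout line, from 2930 to 1569 in the mutant degron line and from 4977 to 2550 in the wildtype degron line when the spread came from the parental pair alone, and ranged over 2456 to 4393, 1011 to 3135 and 1756 to 5141 when 1 library was left out. Between lines, leaving out a library gave 495 to 1410 genes between the knockout and mutant degron lines (1524 as reported, 888 with no filter), 3376 to 5853 between the knockout and wildtype degron lines (5854) and 3112 to 6013 between the mutant and wildtype degron lines (5947).

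Counts for the withdrawal of Shld were small and unstable. In the knockout line 9 genes became 16 with a pseudocount of 0.1, 0 with no filter, 85 with a mean of at least 5, 5 with quantile normalization or median scaling, 1 with the median length correction and 242 with the longest length correction. In the mutant degron line 9 became 0 with a pseudocount of 0.1, no filter, quantile normalization, median scaling, the pooled spread or the median length, and 5 with a mean of at least 5 or the longest length. In the wildtype degron line 8 became 0 with no filter, 5 with quantile normalization, median scaling or the pooled spread, 1 with the median length and 13 with the longest length. For differences between withdrawals, 8 (knockout against mutant degron) became 0 with no filter, 3 with quantile normalization or median scaling, 2 with the median length and 44 with the longest length. The 9 of knockout against wildtype degron became 0, 5, 1 and 4 under these settings. The 4 of wildtype degron against mutant degron became 7 with a pseudocount of 0.1, 0 with no filter or the median length, 10 with a mean of at least 5, 2 with quantile normalization or the pooled spread and 27 with the longest length. The cause was not tested.

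Where both settings had a test, the signs that turned belonged to differences that passed under neither. Against parental cells in the knockout line, PRKCD (0.10) became -0.028 with the parental spread and ran from -0.017 to 0.23 without 1 library. RASGRP3 (-0.02) became 0.084 with quantile normalization and 0.082 with the median length, and ran from -0.16 to 0.12. PRAME (-0.09) became 0.051 with quantile normalization and 0.032 with the parental spread, and ran from -0.21 to 0.027. In the mutant degron line PRAME (0.04) became -0.016 with the parental spread and ran from -0.082 to 0.16, and SF3B1 (-0.01) became 0.063 with quantile normalization and 0.079 with the median length and ran from -0.076 to 0.049. In the wildtype degron line PLCB3 (-0.05) became 0.073 with quantile normalization and 0.018 with the parental spread and ran from -0.17 to 0.065, and CD68 (-0.21) became 0.022 with quantile normalization. Between the knockout and mutant degron lines PLCB4 (0.03) became -0.0069 with either length and ran from -0.13 to 0.19, and RASGRP3 (0.12) ran from -0.014 to 0.26. Between the degron lines PLCB3 (-0.10) became 0.0074 with the median length and ran from -0.21 to 0.019. BAP1 on withdrawal in the mutant degron line (0.02) became -0.0065 with the median length. Less the change in the parental pair, which has no test, withdrawal values also changed sign: BAP1 to -0.0073 and PLCB3 to -0.11 in the knockout line; BAP1 to -0.13, PLCB3 to -0.079 and EIF1AX to 0.045 in the mutant degron line; and BAP1 to -0.11, EIF1AX to 0.051, RASGRP3 to 0.027 and PRAME to 0.017 in the wildtype degron line. From the libraries with Shld alone, also with no test, PRKCD in the knockout line was -0.0030, PRAME in the mutant degron line -0.056 and PLCB3 in the wildtype degron line 0.097.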
